A study of Glycine max with 12 samples.

Results

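The genes described here are soybean genes of the KEGG pathway oxidative phosphorylation other than those that the deposited annotation places in mitochondrial complex I or in the tricarboxylic acid cycle. Of 149 genes with that pathway in the table's KEGG column, 28 carried the Gene Ontology (GO) term for complex I and 5 that for the tricarboxylic acid cycle, and the other 116 were kept, out of 49128 genes in all. The rule uses annotation only and no measured value, but it was set with earlier results of these data known. By annotation they comprised 42 genes of the vacuolar (V-type) proton ATPase, 19 of the plasma membrane (P-type) proton ATPase, 13 of the mitochondrial ATP synthase, 6 of the plastid ATP synthase, 12 of complex III, 8 of complex IV, 5 for the assembly of complex IV, 5 soluble pyrophosphatases, 5 acyl carriers and 1 plastid NADH dehydrogenase subunit. They lie on all 20 chromosomes, and 112 are described in the table only as hypothetical proteins, so roles below come from GO and KEGG terms.

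In mitochondria, complex III passes electrons from ubiquinol to cytochrome c and complex IV passes them to oxygen, and both steps help to build a proton gradient across the inner membrane. The ATP synthase lets protons flow back through its membrane part, Fo, and makes ATP in its soluble head, F1. The V-type and P-type ATPases work in the opposite sense and spend ATP to pump protons, into the vacuole and other compartments or out of the cell, where the gradient drives the uptake and storage of nutrients and metals. KEGG files these pumps under the same pathway, so that the name covers enzymes that make ATP and enzymes that use it.

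Root RNA of the cultivar Williams 82 was sequenced in 12 libraries, 3 for each of 4 groups. These were roots with neither cadmium nor OP (control), with cadmium alone (Cd), with OP alone (control+OP) and with both agents (Cd+OP). OP is Oceanobacillus picturae, a bacterium in the series title, which speaks of Cd stress and growth of soybean seedlings. The label of 70 mg/L Cd stands on all samples, controls included. The labels used here tell neither plant age, exposure time, mode of inoculation and plants per library, nor if replicate libraries derive from different plants. P-values therefore cover only the spread among these libraries. Levels are FPKM (fragments scaled to gene length and library size) as deposited, with the SD over the 3 libraries of a group. Changes are log2 fold changes ± SE from edgeR's quasi-likelihood test on the counts, and "rose", "fell" and "called" mean an adjusted p (Benjamini-Hochberg over 30340 genes) under 0.05. Coordinates come from the authors' table, and their build was not stated in any source at hand.

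Libraries held 49904227 to 57693211 counts, of which the 116 genes held 0.419 to 0.573% and ribosomal RNA genes 0.296 to 0.706%. A mean of at least 1 FPKM over the 12 libraries was reached by 99 of the 116 genes, which were tested; the other 17 had means of 0.00508 to 0.699 FPKM. The 17 included 7 P-type ATPase genes, and the plastid NADH dehydrogenase gene GLYMA_13G068600 was at 0 to 0.187 FPKM. Soybean has many near-identical gene copies between which reads may be split, which makes the separate values of relatives uncertain. In whole roots, fewer cells of a type and less RNA per cell cannot be told apart.

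The summed level of the 116 genes was lowest in Cd, at 2069 ± 24.3 FPKM against 2777 ± 91.7 in control, 3081 ± 14.0 in control+OP and 2374 ± 26.8 in Cd+OP, and the ranges of the 4 groups did not overlap. The classes did not move together. As a percentage of the control mean, the Cd group stood at 51.3% for mitochondrial ATP synthase, 57.5% for complex IV, 78.4% for complex III and 91.4% for the V-type ATPase, but at 142% for the P-type ATPase. In Cd+OP the same classes stood at 82.5, 86.7, 86.0, 90.2 and 70.4%. Mitochondrial ATP synthase and complex IV were thus nearer to control in Cd+OP than in Cd, whereas the P-type ATPase sum lay above control in Cd and below it in Cd+OP.

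**Figure D1:**
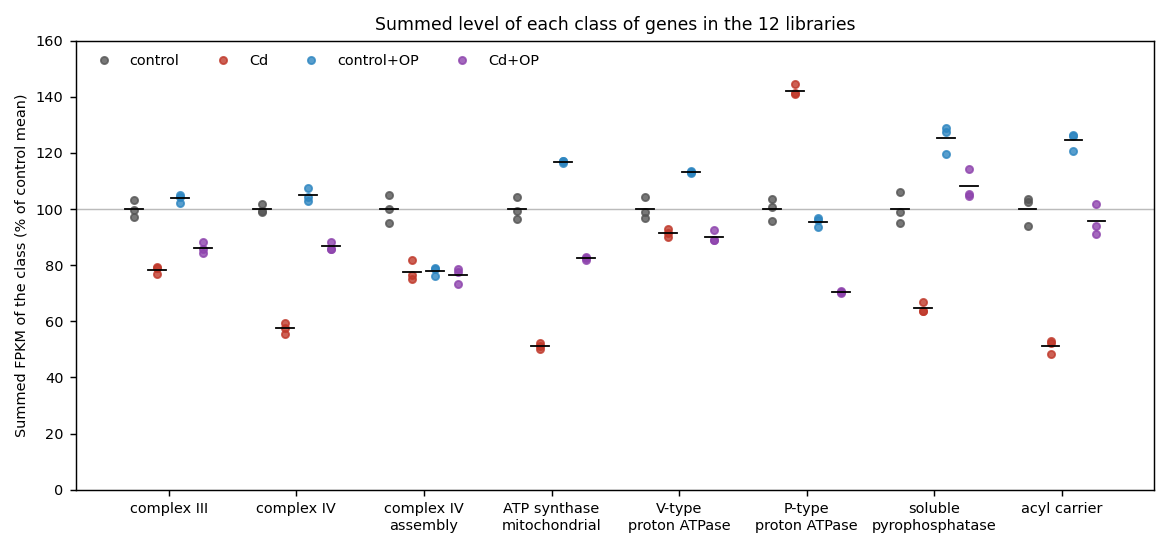
Summed FPKM of each class in the 12 libraries, as a percentage of the class's control mean (y axis). Points are libraries, coloured by group, and black bars are group means; the Cd libraries lie near 51.3% for mitochondrial ATP synthase and near 142% for the P-type proton ATPase.

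For Cd against control, the effect of the metal alone, 62 of the 99 tested genes fell and 17 rose, with a median of -0.35 on the log2 scale. Over all tested genes 38.7% fell and 37.6% rose, with a median of 0.00. Of the 62, 16 fell at least 2-fold, a share of the 99 close to the 16.4% of all genes that did so. With genes of at least 5 FPKM only, 83 members were tested and 8 rose. For Cd+OP against Cd, the bacterium under Cd, 47 genes rose and 31 fell (median 0.15), beside 36.4% and 34.6% of all genes. Of the 99 tested genes 7 rose at least 2-fold, a smaller share than the 14.5% of all genes that did so.

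For control+OP against control, the bacterium without Cd, 57 genes rose and 8 fell (median 0.18), beside 34.6% and 27.2% of all genes with a median of 0.06. Most of these rises were small, and the count depended on the processing. It was 34 higher and 10 lower with no filter on low values, where 116 members were tested. It was 38 higher with at least 5 FPKM, where 83 were tested. Without control replicate 1, 2 or 3 it was 38, 33 and 36 higher. Without Cd replicate 1, 2 or 3 it was 39, 40 and 39 higher, although Cd is not part of this comparison. In the fits without a Cd library the median over all genes was 0.003. With only these groups in the fit, 41 rose and 10 fell, and the median was 0.13 for the members and 0.00 for all genes. For Cd+OP against control+OP, Cd with the bacterium present, 71 genes fell and 5 rose (median -0.38), beside 33.1% and 33.6% of all genes. For Cd+OP against control, 52 fell and 6 rose (median -0.20), beside 29.3% and 30.2%. The interaction, the Cd effect with OP minus that without, was called positive for 35 genes and negative for 34, beside 33.4% and 30.4%. The comparisons share libraries, so their counts are not independent of each other. The shares of all genes given for each comparison apply to the counts by class below as well.

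**Figure D2:**
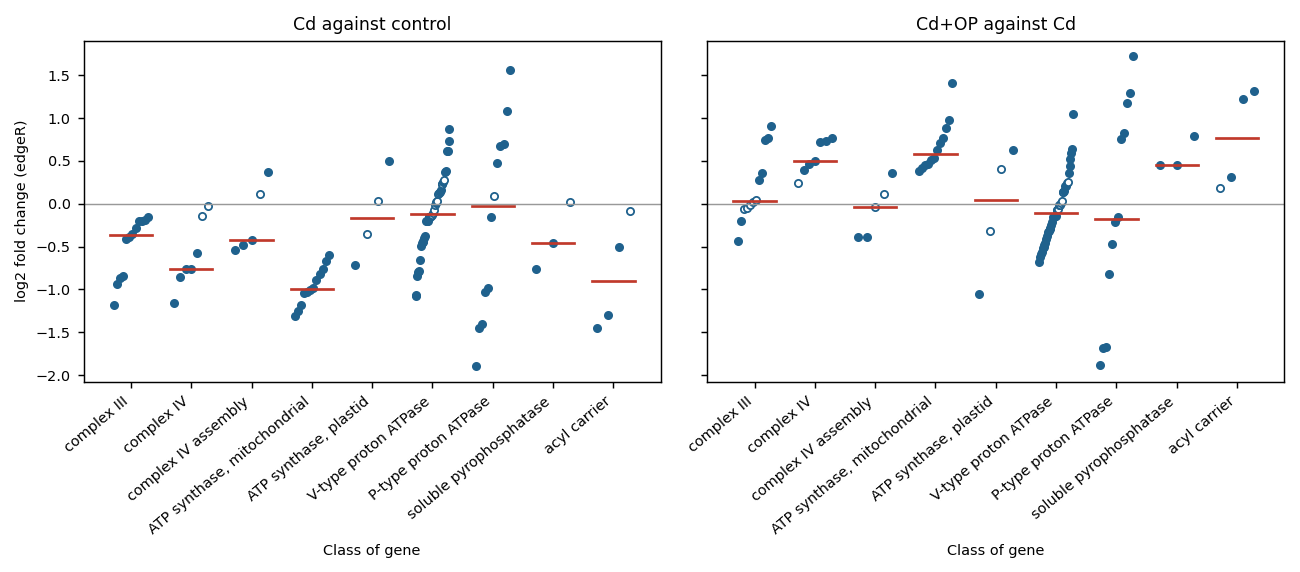
Log2 fold changes (y axis, edgeR) of the 99 tested genes by class, for Cd against control (left) and Cd+OP against Cd (right). Each point is a gene, filled where the adjusted p was under 0.05, and red bars are class medians; the 12 mitochondrial ATP synthase genes are all below 0 on the left and all above 0 on the right, whereas P-type ATPase genes spread on both sides in each.

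Complex III genes were all lower with Cd: 12 of 12 fell, with a median of -0.37 and a range of -1.18 to -0.15. In Cd+OP against Cd 5 rose, 2 fell and 5 were not called (median 0.03). Over all genes 36.4% rose and 34.6% fell there, so the share of rises in complex III was near that of all genes. GLYMA_14G126300 (chromosome 14, 20159565 to 20162431), annotated with a role in complex III assembly, had the highest mean level. It stood at 67.3, 57.6 and 62.1 FPKM in control, 53.5, 56.3 and 53.9 in Cd, 63.0, 66.9 and 60.0 in control+OP, against 56.1, 53.2 and 55.1 in Cd+OP. Its Cd libraries lay below all control libraries (log2 -0.19 ± 0.053, adjusted p = 0.00277, edgeR), and its Cd+OP libraries overlapped the Cd ones.

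The 3 genes that KEGG assigns to the Rieske protein, the iron-sulfur subunit that takes electrons from ubiquinol, did not rise with OP under Cd: 2 fell and 1 was not called. GLYMA_16G147600 (chromosome 16, 30845527 to 30848085) stood at 62.6, 59.4 and 63.0 FPKM in control, 54.7, 53.1 and 53.5 in Cd, 57.2, 56.8 and 56.4 in control+OP, against 41.7, 40.9 and 42.6 in Cd+OP. Cd+OP was its lowest group, below Cd by 0.44 (log2 -0.44 ± 0.039, adjusted p = 3.00e-10, edgeR). The other Rieske genes, named here after their values were seen, are neighbours on chromosome 2, GLYMA_02G066400 (5897892 to 5901262) and GLYMA_02G066500 (5903451 to 5906599). GLYMA_02G066500 went from 27.6 FPKM in control to 23.9 in Cd, 34.6 in control+OP and 21.8 in Cd+OP, and GLYMA_02G066400 from 19.3 to 14.8, 23.2 and 15.0. Both rose in control+OP against control, whereas GLYMA_16G147600 fell there by 0.11. The interaction was negative for all 3, at -0.32, -0.53 and -0.32 for GLYMA_16G147600, GLYMA_02G066500 and GLYMA_02G066400. For GLYMA_13G153500 (chromosome 13, 26862970 to 26865640), also annotated with complex III assembly, the interaction was positive (0.50 ± 0.12, adjusted p = 0.00104, edgeR). It stood at 25.7, 30.1 and 26.8 FPKM in control, 21.8, 22.9 and 23.3 in Cd, 23.9, 24.5 and 22.2 in control+OP, against 28, 30.4 and 28 in Cd+OP, so that Cd+OP lay above Cd and above control+OP and overlapped control.

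Complex IV, the oxidase that reduces oxygen to water, was lower with Cd in 5 of 7 tested genes (median -0.76) and higher in none. With OP under Cd 6 of 7 rose (median 0.50) and none fell. The mean level of each of the 7 genes was lowest in Cd. GLYMA_17G157000 (chromosome 17, 13369210 to 13371028) stood at 101, 95.4 and 91.0 FPKM in control, 56.0, 55.3 and 58.4 in Cd, 103.5, 105.4 and 104.4 in control+OP, against 76.0, 76.9 and 81.3 in Cd+OP. The Cd and Cd+OP libraries lay apart from each other and below both groups without Cd (log2 -0.76 ± 0.044 for Cd against control and 0.39 ± 0.044 for Cd+OP against Cd). GLYMA_05G110100 (chromosome 5, 29185309 to 29188430), which shares its annotation as a regulator of the oxidase, stood at 84.9 ± 2.81 FPKM in control, 47.0 ± 1.97 in Cd, 93.3 ± 5.53 in control+OP and 68.1 ± 2.53 in Cd+OP. Both stayed below control in Cd+OP, by 0.36 and 0.39 on the log2 scale. GLYMA_08G209700 (chromosome 8, 16980435 to 16984474), chosen after its values were seen, had the lowest fold change of the class with Cd. It went from 60.9 FPKM in control to 27.2 in Cd and 48.8 in Cd+OP (log2 -1.16 ± 0.056 and 0.77 ± 0.056).

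Without Cd, 2 complex IV genes rose with OP, GLYMA_17G157000 and GLYMA_05G110100, by 0.13 and 0.14. That count became 0 with no filter, with at least 5 FPKM and without any 1 control or Cd library.

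Genes for assembling complex IV had no common order of groups. GLYMA_02G303400 (chromosome 2, 47870385 to 47873480), annotated with synthesis of heme A, the cofactor of the oxidase, stood at 16.9, 16.6 and 18.7 FPKM in control, 11.6, 13.1 and 12.6 in Cd, 8.50, 8.39 and 8.08 in control+OP, against 8.72, 10.6 and 10.7 in Cd+OP. It was highest in control and lower in each other group, and control+OP was lowest (log2 -1.06 ± 0.082 against control, adjusted p = 2.74e-11, edgeR). It was the only one of the 99 genes that fell at least 2-fold in control+OP, beside 2114 of all 30340 tested genes. GLYMA_20G243400 (chromosome 20, 47383712 to 47388200), the protoheme IX farnesyltransferase that makes heme O on the way to heme A, fell with Cd from 19.0 to 14.1 FPKM (log2 -0.43 ± 0.067) and was at 18.1 in control+OP and 16.0 in Cd+OP. Of the 5 assembly genes 3 fell and 1 rose with Cd, and 1 rose and 2 fell in Cd+OP against Cd.

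The genes of the mitochondrial ATP synthase moved in 1 direction in each comparison. All 12 tested genes fell with Cd (median -0.99, range -1.31 to -0.59), 6 of them at least 2-fold, and all 12 rose in Cd+OP against Cd (median 0.59, range 0.39 to 1.41). Both counts were 12 in each alternative analysis. In Cd+OP against control 10 of the 12 fell (median -0.30), also in each alternative, so most remained under their control level. The summed FPKM was 959, 889 and 914 in control, 471, 462 and 483 in Cd, 1072, 1079 and 1079 in control+OP, against 754, 765 and 761 in Cd+OP, with no overlap between any of the groups.

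GLYMA_10G267200 (chromosome 10, 49031152 to 49035297), a beta subunit gene by its KEGG entry, the subunit that forms ATP in F1, was the most abundant of all 116 genes. It stood at 163, 156 and 162 FPKM in control, 77.4, 77.2 and 79.5 in Cd, 205, 198 and 196 in control+OP, against 112, 114 and 114 in Cd+OP. The 4 groups were separate, in the order Cd, Cd+OP, control and control+OP (log2 -1.04 ± 0.030 for Cd against control, adjusted p = 2.70e-20, edgeR). The other beta subunit gene, GLYMA_20G123600 (chromosome 20, 36625636 to 36629597), named after its values were seen, had the same order, at 113 ± 6.74, 56.2 ± 3.46, 153 ± 2.62 and 81.1 ± 1.99 FPKM for control, Cd, control+OP and Cd+OP. For these beta subunit genes the fall with Cd was nearly as large with OP (-0.89 and -0.99) as without (-1.04 and -1.0), with an interaction of 0.14 ± 0.042 and 0.01 ± 0.055, the latter not called (adjusted p = 0.897, edgeR).

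GLYMA_20G177700 (chromosome 20, 41518436 to 41522203), of the stator stalk that holds F1 still against Fo, showed a larger difference. It stood at 129, 109 and 116 FPKM in control, 51.2, 50.7 and 53.8 in Cd, 126, 131 and 126 in control+OP, against 103.995, 110.2 and 109.6 in Cd+OP. Its fall with Cd was 1.18 without OP and 0.32 with it (interaction 0.86 ± 0.061, adjusted p = 5.05e-12, edgeR). The F1 gene GLYMA_07G003700 (chromosome 7, 281724 to 282948), at 9.82 FPKM in control, 3.94 in Cd, 12.2 in control+OP and 11.0 in Cd+OP, fell by 1.31 without OP, while with OP its change of -0.22 was not called (adjusted p = 0.135; interaction 1.09 ± 0.19, edgeR). The interaction was called positive for 11 of the 12 genes, with a median of 0.40, and for none was it negative. With OP and no Cd 11 of the 12 rose, but by a median of only 0.18, and the count was 5 to 12 over the alternatives, with 5 for no filter and for leaving out control replicate 2, 6 without control replicate 3 and 7 without control replicate 1.

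**Figure D3:**
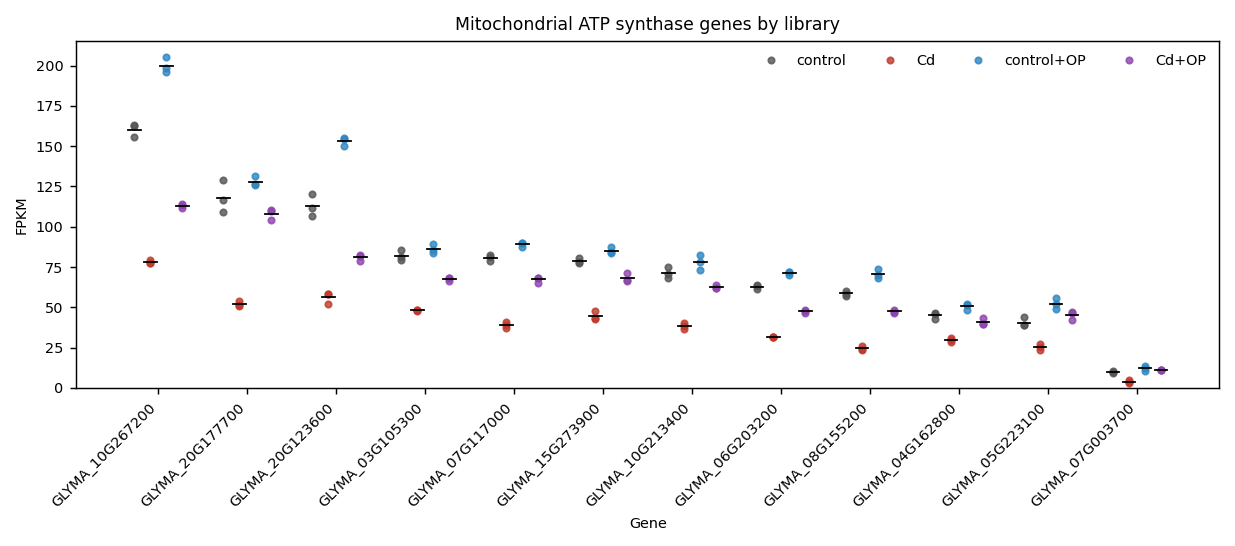
FPKM (y axis) of the 12 tested mitochondrial ATP synthase genes (x axis, by falling mean level) in the 12 libraries. Points are libraries coloured by group and black bars are group means; in each gene the mean is lowest in Cd and highest in control+OP, with GLYMA_10G267200 at 78.1 and 200 FPKM.

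Plastid ATP synthase genes were near the limit of testing, at a summed 9.71 to 10.6 FPKM per group mean, and 4 of 6 were tested. The Fo genes GLYMA_04G066000 (chromosome 4, 5507499 to 5508787) and GLYMA_06G067400 (chromosome 6, 5150146 to 5151503) went from 2.89 and 2.52 FPKM in control to 1.76 and 1.97 in Cd, of which the first was called (log2 -0.71 ± 0.19) and the second not (-0.35 ± 0.18). GLYMA_08G317100 (chromosome 8, 43675698 to 43677901), described as a chloroplastic gamma chain and chosen after its values were seen, moved the other way. It stood at 2.15, 2.60 and 2.30 FPKM in control, 3.23, 3.38 and 3.38 in Cd, 1.18, 1.37 and 0.994 in control+OP, against 1.53, 1.66 and 1.88 in Cd+OP. It rose with Cd by 0.50 and fell with OP by 1.05 under Cd and by 0.99 without, and the interaction of -0.06 ± 0.21 was not called.

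The V-type proton ATPase, which acidifies the vacuole and other compartments, did not move as a whole with Cd. Of 40 tested genes 18 fell, 10 rose and 12 were not called (median -0.12). Of 23 genes of the membrane domain V0, which conducts the protons, 9 rose and 6 fell with Cd (median 0.11), a share of rises near the 37.6% of all genes. Of 12 genes of the ATP-splitting domain V1, 1 rose and 7 fell (median -0.41), and of 5 genes whose domain is not given all 5 fell. The V0 count of 9 became 5 with genes of at least 5 FPKM, where 21 V0 genes were tested. It was also 5 without control replicate 2 and without control replicate 3. In Cd+OP against Cd, 16 V0 genes fell and 2 rose, while 2 V1 genes fell and 5 rose. In control+OP 16 V0 and 7 V1 genes rose and none fell. Over the alternatives 9 to 17 V0 and 4 to 7 V1 genes rose and 0 to 1 of each fell, with 9 V0 genes for no filter and without control replicate 2. In Cd+OP against control+OP 18 V0 and 9 V1 genes fell and none rose. The interaction was negative for 17 V0 genes (median -0.40) and positive for none, and negative for 5 and positive for 3 V1 genes. The difference between domains was not tested as such.

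GLYMA_06G007400 (chromosome 6, 561498 to 563749), a V0 gene of the vacuolar membrane and the most abundant V-type gene, stood at 43.0, 39.6 and 38.0 FPKM in control, 44.1, 44.8 and 41.1 in Cd, 51.1, 49.9 and 49.4 in control+OP, against 42.3, 46.5 and 41.0 in Cd+OP. Control+OP lay above the other groups, which overlapped (log2 0.32 ± 0.052 against control, adjusted p = 6.59e-06, edgeR), and Cd against control was not called (0.11 ± 0.052, adjusted p = 0.055, edgeR). GLYMA_13G329100 (chromosome 13, 42366389 to 42382144), a V0 gene annotated with vacuolar acidification, had the largest rise with Cd of the V-type genes. It stood at 7.65, 6.50 and 7.40 FPKM in control, 13.4, 13.1 and 12.8 in Cd, 7.65, 8.51 and 8.17 in control+OP, against 9.10, 9.59 and 9.28 in Cd+OP. It rose by 0.87 ± 0.059 with Cd and fell by 0.56 ± 0.058 in Cd+OP against Cd. In Cd+OP it was still above control (0.31 ± 0.059).

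The V0 genes GLYMA_11G110100 (chromosome 11, 8397135 to 8398949) and GLYMA_12G072700 (chromosome 12, 5364136 to 5377207), chosen after their values were seen, rose with Cd alone and with OP alone, and for neither was Cd+OP against control called. GLYMA_11G110100 stood at 26.7, 26.6 and 27.3 FPKM in control, 38.7, 39.2 and 45.1 in Cd, 38.2, 36.6 and 36.9 in control+OP, against 28.5, 29.1 and 28.6 in Cd+OP. Its changes against control were 0.61, 0.48 and 0.03, the last not called (adjusted p = 0.687), and its interaction was -1.06 ± 0.079 (adjusted p = 1.27e-11, edgeR). GLYMA_12G072700 went from 2.91 FPKM in control to 4.84 in Cd, 4.48 in control+OP and 3.31 in Cd+OP, with an interaction of -1.25 ± 0.099. Its Cd+OP libraries, at 3.47, 3.21 and 3.24 FPKM, lay above its control libraries, at 2.99, 2.77 and 2.98, but the difference was not called (log2 0.11 ± 0.071, adjusted p = 0.171, edgeR).

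Other V-type genes were lowest in Cd. GLYMA_07G023400 (chromosome 7, 1791259 to 1792648), annotated with vacuolar acidification and no domain, stood at 47.2, 44.1 and 43.2 FPKM in control, 27.4, 26.5 and 23.6 in Cd, 45.4, 42.0 and 39.5 in control+OP, against 30.7, 31.4 and 31.7 in Cd+OP. It fell by 0.79 ± 0.053 with Cd and rose by 0.20 ± 0.054 in Cd+OP against Cd. GLYMA_13G139900 (chromosome 13, 25256347 to 25258624), of the vacuolar complex, fell by 0.20 ± 0.068 with Cd and was above control in Cd+OP (0.25 ± 0.067). Chosen after their values were seen, the V1 genes GLYMA_08G090500 (chromosome 8, 6810921 to 6814987) and GLYMA_18G247300 (chromosome 18, 53463296 to 53470011) fell with Cd by 1.07 and 0.84 and rose in Cd+OP against Cd by 0.64 and 0.36. GLYMA_03G180700 (chromosome 3, 39261462 to 39263776), with no domain given and also chosen after its values were seen, stood at 7.89, 3.75, 9.0 and 8.19 FPKM in control, Cd, control+OP and Cd+OP.

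**Figure D4:**
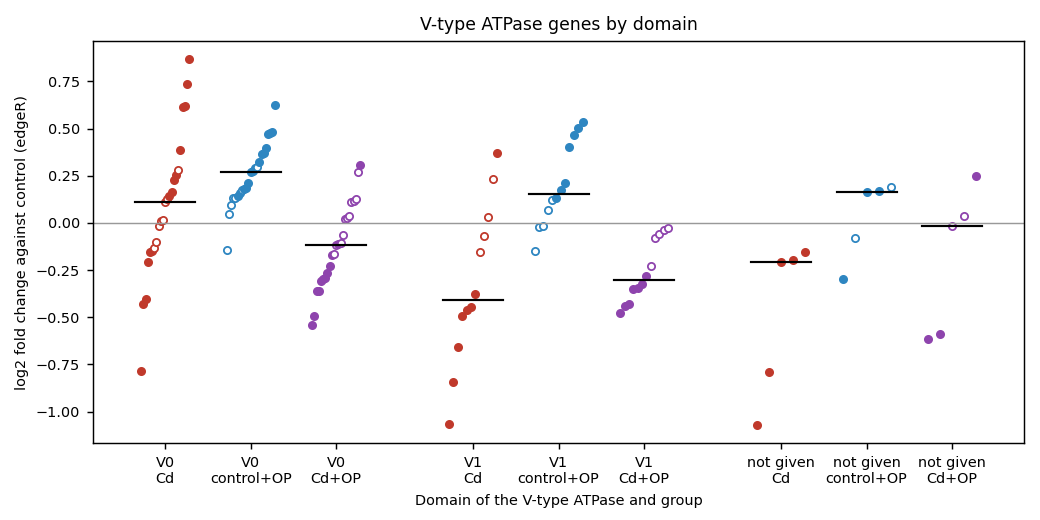
Log2 fold changes against control (y axis, edgeR) of the 40 tested V-type ATPase genes, by domain (V0, V1 or not given) and group (x axis). Points are genes, filled where called, and black bars are medians, which for Cd are 0.11 in V0 and -0.41 in V1; the comparisons share the control libraries.

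The plasma membrane proton ATPase, which exports protons and thereby energises uptake into root cells, had the widest spread of any class. With Cd 5 of 12 tested genes rose and 6 fell, from -1.90 to 1.57, beside 37.6% and 38.7% of all genes. In Cd+OP against Cd 5 rose and 7 fell, from -1.88 to 1.72, beside 36.4% and 34.6% of all genes. Every tested pump gene was thus called there, in a comparison where 71% of all genes were called. In control and Cd, most of the level came from a pair of genes. Together these made up 59.3% of the class's summed FPKM in control, 73.9% in Cd, 40.5% in control+OP and 46.7% in Cd+OP.

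GLYMA_09G056300 (chromosome 9, 5059486 to 5068979), the more abundant of the pair, stood at 89.1, 88.2 and 83.6 FPKM in control, 139, 139 and 143 in Cd, 62.3, 59.4 and 62.7 in control+OP, against 46.9, 46.5 and 45.5 in Cd+OP. All 4 groups were separate, with Cd highest and Cd+OP lowest. It rose by 0.70 ± 0.031 with Cd and fell 3.19-fold in Cd+OP against Cd (log2 -1.67 ± 0.032, adjusted p = 9.52e-24, edgeR). With OP present its Cd effect was opposite in sign, at -0.48 ± 0.032. GLYMA_17G061800 (chromosome 17, 4707867 to 4715299) stood at 42.3, 40.2 and 38.5 FPKM in control, 84.2, 85.5 and 85.7 in Cd, 21.6, 20.4 and 22.6 in control+OP, against 25.1, 24.2 and 23.7 in Cd+OP. Both OP groups lay below control and Cd above it. It rose by 1.08 ± 0.037 with Cd and fell 3.67-fold in Cd+OP against Cd (log2 -1.88 ± 0.038, adjusted p = 2.66e-23, edgeR). With OP alone both genes fell, by 0.50 and 0.90 on the log2 scale.

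Some less abundant pump genes were lowest in Cd. GLYMA_06G076100 (chromosome 6, 5893905 to 5901500) stood at 11.8, 11.3 and 10.3 FPKM in control, 6.05, 5.29 and 5.56 in Cd, 13.3, 12.8 and 12.7 in control+OP, against 12.9, 13.4 and 13.7 in Cd+OP. It fell by 0.98 ± 0.058 with Cd and rose by 1.17 ± 0.057 in Cd+OP against Cd. GLYMA_17G096100 (chromosome 17, 7545395 to 7552064), at 7.01, 6.78 and 7.01 FPKM in control and 2.08, 1.44 and 2.06 in Cd, had the lowest fold change of all 99 genes with Cd (log2 -1.90 ± 0.097, adjusted p = 3.56e-15, edgeR). In control+OP it stood at 10.7, 9.71 and 10 and in Cd+OP at 4.71, 4.89 and 4.74. GLYMA_05G030700 (chromosome 5, 2636251 to 2642721) went from 9.56 FPKM in control to 3.48 in Cd and 6.18 in Cd+OP, with 9.37 in control+OP. GLYMA_04G075100 (chromosome 4, 6285850 to 6293073), chosen after its values were seen, stood at 5.14, 1.93, 4.97 and 6.70 FPKM in control, Cd, control+OP and Cd+OP, and had the highest fold change of the 99 genes in Cd+OP against Cd (log2 1.72 ± 0.095) and the highest interaction (1.77 ± 0.13).

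A further set was highest with OP alone. GLYMA_04G174800 (chromosome 4, 43654268 to 43660992) stood at 4.11, 4.28 and 4.02 FPKM in control, 2.31, 1.77 and 1.98 in Cd, 10.3, 10.3 and 11.9 in control+OP, against 3.49, 3.63 and 4.15 in Cd+OP. Its rise of 1.39 ± 0.092 (adjusted p = 1.15e-12, edgeR) was the largest of the 99 genes for OP without Cd. GLYMA_06G189900 (chromosome 6, 16673749 to 16680536) stood at 5.88, 5.76 and 5.47 FPKM in control and 12.7, 12.4 and 11.9 in control+OP (log2 1.12 ± 0.057), with 6.08, 6.03 and 6.08 in Cd and 5.56, 5.81 and 5.85 in Cd+OP. The rise with OP was thus seen without Cd and not with it (interaction -1.27 ± 0.081, adjusted p = 6.87e-13, edgeR). GLYMA_19G019200 (chromosome 19, 2051713 to 2060086) and GLYMA_15G162600 (chromosome 15, 13923374 to 13932194), named after their values were seen, also rose with OP alone, by 0.98 and 0.34, and fell in Cd+OP against Cd, by 0.47 and 0.21.

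GLYMA_14G134100 (chromosome 14, 23324171 to 23333995) was higher with either factor and not with both, at 16.2, 16.6 and 15.2 FPKM in control, 24.6, 24.9 and 27.2 in Cd, 21.7, 22.1 and 22.4 in control+OP, against 15.4, 14.9 and 15.1 in Cd+OP. Its changes against control were 0.68, 0.47 and -0.15. GLYMA_17G199200 (chromosome 17, 31565684 to 31575131), chosen after its values were seen, had the highest fold change of the 99 genes with Cd, from 2.83, 3.02 and 2.40 FPKM in control to 8.63, 8.38 and 7.37 in Cd (log2 1.57 ± 0.097). It was at 3.99, 4.51 and 4.03 in control+OP, against 2.43, 2.70 and 2.82 in Cd+OP, and its interaction of -2.30 ± 0.14 was the lowest of the 99 genes. The interaction was called for all 12 pump genes, beside 63.9% of all genes. It was negative for 8 and positive for 4, beside 30.4% and 33.4% of all genes, so the share of positive ones was near that of all genes.

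**Figure D5:**
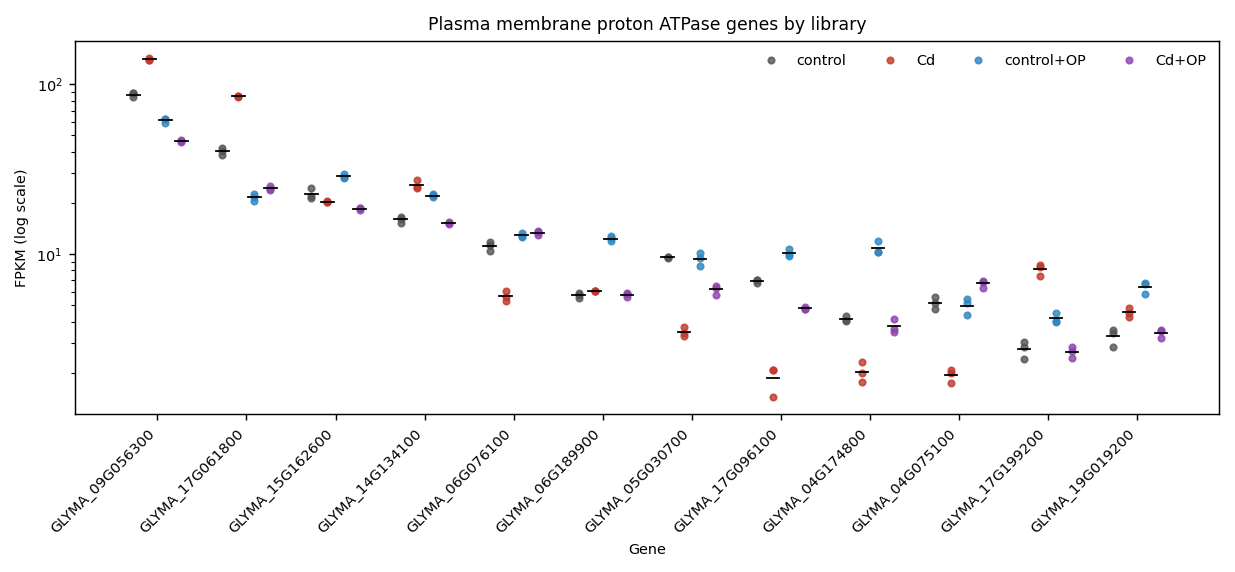
FPKM (y axis, log scale) of the 12 tested plasma membrane proton ATPase genes (x axis, by falling mean level) in the 12 libraries. Points are libraries coloured by group and black bars are group means; GLYMA_09G056300 and GLYMA_17G061800 are highest in Cd, at 141 and 85.1 FPKM, whereas GLYMA_17G096100 is lowest there, at 1.86.

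Soluble pyrophosphatases, which split the pyrophosphate released by biosynthesis, were lower with Cd in 2 of 3 tested genes and rose in Cd+OP against Cd in 3 of 3. GLYMA_11G070800 (chromosome 11, 5288501 to 5292009) stood at 42.8, 41.0 and 38.2 FPKM in control, 22.9, 22.9 and 26.1 in Cd, 50.9, 51.4 and 47.6 in control+OP, against 43.1, 45.8 and 41.6 in Cd+OP. Cd was separate and lowest (log2 -0.76 ± 0.050), and Cd+OP against control was not called (0.03 ± 0.048). GLYMA_13G253600 (chromosome 13, 35972675 to 35975896), whose GO terms include response to cadmium ion, fell with Cd from 16.6 ± 1.51 to 12.1 ± 0.618 FPKM (log2 -0.45 ± 0.077) and rose in Cd+OP against Cd by the same amount, to 17.4 FPKM.

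Acyl carrier proteins hold growing fatty acids, and in mitochondria one is also a part of complex I, through which KEGG places them in this pathway. With Cd 3 of 4 tested genes fell and in Cd+OP against Cd 3 of 4 rose. GLYMA_09G247100 (chromosome 9, 46859691 to 46862885) stood at 30.6, 28.3 and 31.8 FPKM in control, 10, 12 and 11 in Cd, 38.8, 32.8 and 33.6 in control+OP, against 30.4, 27.6 and 28.6 in Cd+OP. Its fall with Cd (log2 -1.45 ± 0.091, adjusted p = 2.19e-13, edgeR) was among the 3 lowest fold changes with Cd of genes with at least 5 FPKM, and Cd+OP overlapped control. GLYMA_18G244300 (chromosome 18, 53208864 to 53210903) changed less, from 28.6 FPKM in control to 20.0 in Cd, 36.7 in control+OP and 26.1 in Cd+OP (log2 -0.51 ± 0.073 with Cd).

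Among the other respiratory genes, lists taken from annotation, complex I had 26 tested genes, of which 26 fell with Cd (median -0.95) and 23 rose in Cd+OP against Cd (median 0.61), beside medians of -0.99 and 0.59 in the mitochondrial ATP synthase. The tricarboxylic acid cycle genes of the pathway fell with Cd in 5 of 5 cases (median -0.58), and in Cd+OP against Cd 2 rose and 1 fell (median 0.01). Alternative oxidase passes electrons from ubiquinol straight to oxygen, around complexes III and IV, and pumps no protons. Of its 5 tested genes 4 rose with Cd and 5 fell in Cd+OP against Cd. GLYMA_04G123800, an alternative oxidase gene, stood at 11.1, 10.7 and 11.7 FPKM in control, 130, 131 and 126 in Cd, 13.2, 13.1 and 11.6 in control+OP, against 39.1, 41.1 and 40.1 in Cd+OP (log2 3.53 ± 0.046 for Cd against control and -1.76 ± 0.042 for Cd+OP against Cd). Of 14 ATP/ADP carriers, which exchange ATP for ADP across the inner membrane, 8 fell and 4 rose with Cd. Of complex IV assembly genes outside the pathway, 5 fell and 6 rose of 17, of complex III assembly genes 1 fell and 2 rose of 6, and of cytochrome complex assembly genes 3 rose of 4.

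Marker genes of other tissue states also differed between the groups. Each list below had its lowest sums in Cd, but the lists differed in their order over the other groups. Photosystem genes, a list for green tissue, summed to 220 to 235 FPKM in control, 58.8 to 60.1 in Cd, 142 to 148 in control+OP and 103 to 107 in Cd+OP, and 27 of 31 tested fell with Cd. Of the 137 on the list 2 were at 0 in all libraries. Oxygen carriers, the list for root nodules, with 9 genes and none at 0 throughout, summed to 756 to 832, 349 to 355, 452 to 491 and 399 to 422 FPKM in the same order of groups, of which GLYMA_11G121800 alone held 621 to 684 in control. The leghaemoglobin gene GLYMA_10G198800 stood at 0.982 to 1.67 FPKM in control, 0.495 to 1.48 in Cd, 116 to 127 in control+OP and 2.56 to 3.15 in Cd+OP. Its highest group was thus control+OP, whereas the sum of the list was highest in control. Of 8 tested oxygen carriers 2 rose and 3 fell with Cd, and 4 rose and 4 fell in control+OP against control. Nutrient reservoir genes, a list for seed remnants, summed to 875 to 940, 414 to 435, 1183 to 1220 and 1087 to 1098 FPKM, and 3 of 103 were at 0. Of 10 tested genes of the Casparian strip, the barrier of the root endodermis, 9 fell with Cd (median -4.69) and 9 rose in Cd+OP against Cd, with sums of 128 to 134, 98.1 to 101, 131 to 139 and 126 to 133 FPKM; 0 of the 12 on this list, which marks root tissue, were at 0 throughout. Whether these differences in marker levels reflect differences in tissue was not tested, nor was their part in the changes above.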

How the data were processed

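Per the labels' protocols, TRIzol was used to extract root RNA, and sequencing was by Illumina NovaSeq. The authors deposited 1 table of 49128 genes with FPKM values and whole-number counts for each of the 12 libraries. No source at hand states the aligner, counter, genome build or annotation. The deposited expected counts were whole numbers and used unrounded. Their distribution was uneven, with 10000 values equal to 4 but 5019 equal to 3 and 3231 equal to 5, and therefore counts divided by 4 were tried as an alternative.

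The 30340 genes whose mean reached 1 FPKM entered edgeR 4.0.16 in R 4.3.3 (quasi-likelihood F test, TMM scaling, 1 mean per group over all 12 libraries, two-sided, Benjamini-Hochberg over all genes tested, threshold 0.05). The SE is the size of the log2 fold change divided by the square root of F. The fit was also run on simulated independent counts for control and Cd only, with few genes changed. That setting differs from the data, so nothing here rests on it. Alternatives were DESeq2 1.42.0, median-of-ratios scaling, limma 3.58.1 on log2(FPKM + 1) and log2(FPKM + 0.1), counts divided by 4, no filter, at least 5 FPKM, only the groups compared, the replicate number as a block and each library left out.

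Roles were set from GO and KEGG identifiers. Named genes are the 2 of each class with the highest mean FPKM and, per comparison, the 3 highest and 3 lowest log2 fold changes among called members with at least 5 FPKM; 14 others are marked in the text as chosen after their values were seen. The members, the lists and the tests were chosen with earlier results of these data known. None of the gene identifiers (0 of 116) matched the reference table of names, and no sequence is shown. Total counts bear on counting error only, not on differences between plants. Spread between libraries of a group beyond counting error, as edgeR estimates it (square root of its common dispersion), was 0.0796. With counts divided by 4 it was 0.0324. The estimate takes the counts as a plain tally of reads, which their uneven distribution leaves in doubt. How much of 0.0796 is counting error was not settled. In either case adjusted p-values rest on small differences between libraries, which are not stated to derive from different plants.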

Additional observations from a re-analysis of the deposited data

Results flagged for a closer look

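The results below are the named genes whose Cd effect differed with and without OP by the test of the interaction itself (edgeR, adjusted p under 0.05, n = 3 libraries per group). They number 34 of 42 tested named genes, 19 positive and 15 negative. Values are log2 differences, the Cd effect with OP minus that without. The set was chosen partly for extreme interactions, for changes in comparisons that share libraries with it or after values were seen, so its count says nothing about how common such differences are.

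Among plasma membrane proton ATPase genes the difference was negative for GLYMA_17G199200 (-2.299), GLYMA_19G019200 (-1.445), GLYMA_14G134100 (-1.296), GLYMA_06G189900 (-1.268), GLYMA_09G056300 (-1.179), GLYMA_17G061800 (-0.977), GLYMA_04G174800 (-0.5666) and GLYMA_15G162600 (-0.5515). It was positive for GLYMA_04G075100 (1.765), GLYMA_06G076100 (0.9537), GLYMA_05G030700 (0.7811) and GLYMA_17G096100 (0.74). For GLYMA_09G056300 the Cd effect was 0.70 without OP and -0.48 with it, a change of sign between effects that were both called.

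Among V-type proton ATPase genes it was negative for the V0 genes GLYMA_12G072700 (-1.248), GLYMA_11G110100 (-1.062), GLYMA_13G329100 (-0.7429) and GLYMA_06G007400 (-0.3994). It was positive for the V1 genes GLYMA_08G090500 (0.6529) and GLYMA_18G247300 (0.2284) and for GLYMA_03G180700 (0.861), GLYMA_07G023400 (0.281) and GLYMA_13G139900 (0.2796), whose domain is not given.

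In the mitochondrial ATP synthase it was positive for GLYMA_07G003700 (1.09), GLYMA_20G177700 (0.8612) and GLYMA_10G267200 (0.1405). In complex IV it was positive for GLYMA_08G209700 (0.8617), GLYMA_05G110100 (0.3232) and GLYMA_17G157000 (0.2618), and so it was for the heme A synthesis gene GLYMA_02G303400 (0.6728). In complex III it was positive for GLYMA_13G153500 (0.4954) and negative for the Rieske genes GLYMA_02G066500 (-0.5332), GLYMA_16G147600 (-0.3231) and GLYMA_02G066400 (-0.3186). The acyl carrier gene GLYMA_09G247100 (1.097) and the pyrophosphatase gene GLYMA_11G070800 (0.4841) complete the set.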

How the results depend on the processing

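Over the alternatives, 239 counts of members called stayed within 1.5 times the reported value and 11 did not, and named genes kept their side of the threshold in 5016 cases, lost a call in 131, gained one in 61 and reversed a called direction in 0. With genes of at least 5 FPKM, where 83 members and not 99 were tested, 8 rose with Cd (17 reported). In the same setting 3 rose in Cd+OP against control (6 reported). With no filter, where all 116 were tested, 34 rose in control+OP against control (57 reported). With limma 9 and 8 rose in Cd+OP against control+OP (5 reported) for pseudocounts of 1 and 0.1. The cause was not tested. With 1 library left out, members higher and lower numbered 12 to 18 and 61 to 64 for Cd against control, 43 to 48 and 28 to 32 for Cd+OP against Cd, 33 to 57 and 6 to 10 for control+OP against control, 2 to 5 and 69 to 73 for Cd+OP against control+OP, 2 to 6 and 47 to 57 for Cd+OP against control, and 34 to 38 and 32 to 34 for the interaction. The low counts came without control replicate 2 (33 and 2 higher), without control replicate 3 (36 higher), without control+OP replicate 1 or 3 (2 higher) and without Cd+OP replicate 2 (3 higher). For control+OP against control, 38 also rose without control replicate 1 and 39 to 40 without any 1 Cd library. Same-numbered libraries deviated from their group means with correlations of -0.00812 to 0.0694 over 18 pairs. For 36 pairs of different number the correlations were -0.0835 to 0.045. All were small, but 10 of 12 libraries correlated best with their own number, so these values do not decide whether the numbers pair the samples. With the replicate number as a block, 18 genes were higher and 61 lower for Cd against control, 49 and 31 for Cd+OP against Cd, 56 and 7 for control+OP against control, 5 and 71 for Cd+OP against control+OP, 6 and 51 for Cd+OP against control, and 35 and 34 for the interaction. For control+OP against control the median log2 fold change over all genes was 0.06 as reported and 0.00 with only the groups compared, where 41 members rose, while counts divided by 4 gave 57.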
